A study of Mus musculus with 8 samples.

Results

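Liver RNA of mice that received a low fat diet without vitamin A, as did their dams, was compared with liver RNA of mice that ate a high fat diet after weaning. The comparison takes in 6 of the 8 arrays of the series: every array of the vitamin A deficient low fat group (2 arrays) and of both high fat groups (4 arrays), chosen by their titles. The mice of all groups were male wild-type C57Bl/6J animals of 14 weeks, killed after a 4 h fast. In the breeder diet high fat group, dams ate a standard breeder chow and offspring were weaned onto a diet with 60% of energy as fat. In the low fat dam high fat group, dams changed at embryonic day 10.5 to a defined vitamin A sufficient diet with 12% of energy as fat, and offspring were weaned onto the same 60% fat diet. In the deficient group, dams and weaned offspring both ate a defined diet with 12% of energy as fat that was deficient in vitamin A. The remaining 2 arrays hold the sufficient low fat group, in which dams and offspring ate the 12% fat diet with vitamin A. Values and tests of this group are given beside genes and gene lists of the main comparison. Its arrays also enter the estimate of spread behind every test, since all 8 arrays were fitted together. Vitamin A content, dietary fat and the maternal diet all change between the deficient group and each high fat group, so their parts cannot be told apart.

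Vitamin A reaches the liver as retinol, and stellate cells store it there as retinyl esters made by the enzyme LRAT. Retinol not stored can be oxidised to retinoic acid, which acts through nuclear receptors (RAR and RXR) that bind response elements in DNA. Cells limit retinoic acid by CYP26 enzymes, and the genes for CYP26 enzymes, LRAT and the receptor RARβ are known to be induced by retinoic acid itself.

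Each array was a single-colour Agilent whole-genome array, and a gene's level is the log2 of its processed signal minus the 75th percentile of that array, so that 0 is the signal at that percentile. Levels of different probes are on different scales and are not set against each other here. A probe is called well above background by the scanner software, and 17254 genes had a probe that was so on both arrays of at least 1 group. Array 1 of the low fat dam high fat group stood apart: it called 87.5% of its probes well above background, where the other 7 called 56.8% to 64.2%, it carried 2764 outlier spots against 66 to 365, and it correlated with its replicate at r = 0.919, against 0.977 to 0.992 in the other groups. It also lacked a value for 944 of the genes. Counts of called genes, and the calls that depend on it, are therefore given without this array too. Leaving out an array leaves 1 in its group, whose own spread then does not enter the test. Replicates of the low fat dam group differed with an SD of 1.47, against 0.407 to 0.711 in the other groups. Without this array, the estimate of spread therefore comes from the other groups. Replicates 1 of all groups shared a slide, as did replicates 2, and each group had a fixed position on its slide, so position and diet cannot be told apart. Whether every sample is a separate animal is not given in the labels, so the p-values measure only the spread between these samples, which may be technical. Of the hepatocyte marker genes, which check the tissue label, all 18 measured, albumin among them, were well above background on both deficient arrays.

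Against the 4 high fat arrays together, 30 of 17254 genes passed an adjusted p of 0.05 (0.174%). Among them 10 rose (0.058%) and 20 fell (0.116%) in the deficient group, and in all 30 both deficient arrays lay outside the range of the high fat arrays measured. With quantile normalization in place of the percentile, 16 rose and 15 fell, and 14 of these 31 were among the 30. The median difference over all genes was 0.04 on the log2 scale, and 1523 genes had an unadjusted p under 0.05. Leaving out the array that stood apart gave 329 genes (1.91%), 217 higher (1.26%) and 112 lower (0.649%), and all 30 were among them, with adjusted p from 0.00814 to 0.0293. With the slide as a block, 12 of the 30 passed and the other 18 had adjusted p from 0.0572 to 0.0796. Of the 30, 25 carry a gene name, and the other 5 are unnamed transcripts, of which TC1778008, AK046650 and 9530039L23Rik fell and AA986860 and A_52_P517668 rose. The count rests on every array of the fit, since leaving out any array of the breeder diet, sufficient low fat or deficient group gave 0 genes, and leaving out array 2 of the low fat dam group gave 1727.

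**Figure D1:**
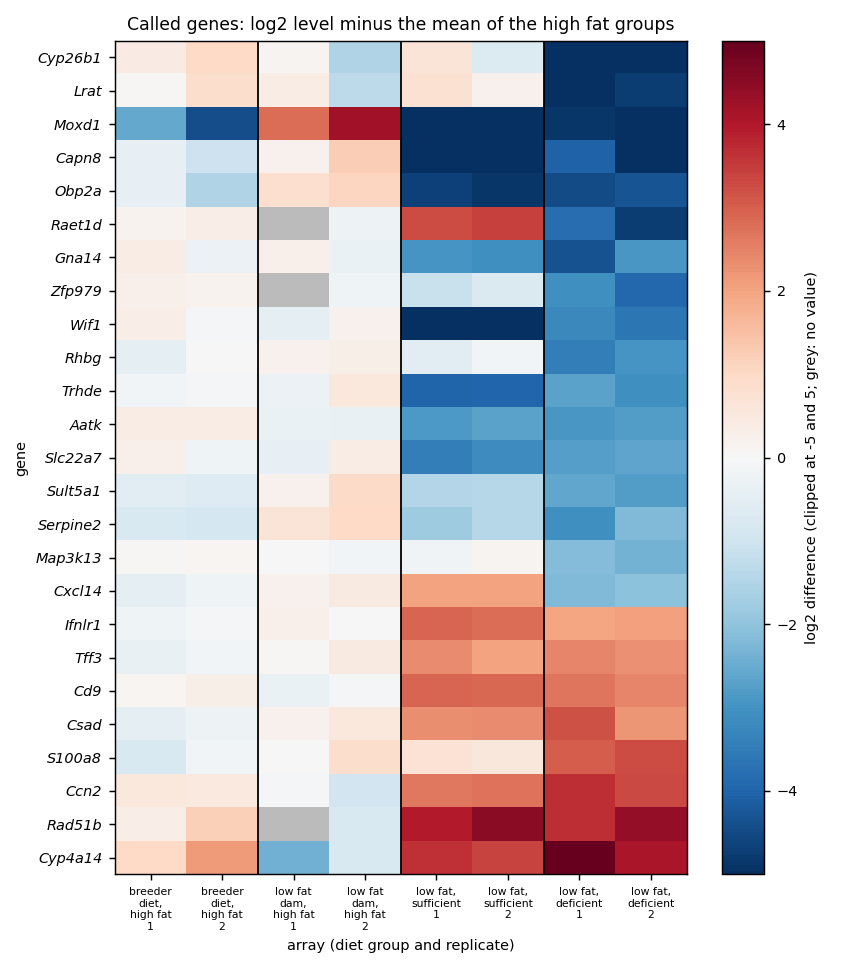
Log2 level of the 25 named genes that passed the test, minus the mean of the high fat groups, on each of the 8 arrays (columns, by diet group and replicate); blue is lower, red is higher, the scale is clipped at -5 and 5, and grey marks a missing value. For every gene both deficient arrays have the same colour and lie outside the high fat arrays, while the sufficient low fat arrays resemble the high fat arrays for some genes (Cyp26b1, Lrat, Rhbg, Map3k13) and the deficient arrays for others (Obp2a, Aatk, Cd9, Tff3).

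Cyp26b1 and Lrat, which clear retinoic acid and store retinol, both fell. Cyp26b1, which hydroxylates retinoic acid for disposal, had levels of 2.66 and 3.24 on the breeder diet high fat arrays and 2.40 and 0.76 on the low fat dam high fat arrays, but -4.09 and -6.82 on the deficient arrays. The groups did not overlap, and the probe was well above background on 1 of the 2 deficient arrays. On the log2 scale it fell by 7.72 with an SE of 0.82 (adjusted p = 0.0291), and its difference was -7.31 without the array that stood apart. Errors after ± are likewise SE. Lrat, the retinol esterifying enzyme of stellate cells, was at 0.47, 1.30, 0.77 and -0.89 on the high fat arrays and at -5.57 and -4.33 on the deficient arrays. It fell by 5.36 ± 0.57 (adjusted p = 0.0291, and 0.0606 with the slide as a block), and both of its probes pointed the same way. Lrat too was well above background on only 1 of the 2 deficient arrays, so the size of either difference is limited by the floor of the array. The sufficient low fat arrays stood with the high fat arrays for both genes, at 2.90 and 1.59 for Cyp26b1 and at 1.16 and 0.61 for Lrat, and the deficient group differed from them by -7.70 (adjusted p = 0.025) and -5.83 (adjusted p = 0.019).

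Cyp26a1, the other main retinoic acid hydroxylase of liver, was spread widely among the high fat arrays, at -0.48, 2.00, 2.65 and -1.52. On the deficient arrays it was at -6.44 and -7.10, not well above background on either and far below every high fat array. With that spread the difference of -7.43 ± 1.13 did not pass the test (adjusted p = 0.0857). It was -6.39 without the array that stood apart and -8.47 without the other array of that group. In each of these fits 1 array stood for the low fat dam group. Of 18 fits of the pooled comparison, Cyp26a1 passed in only these 2. From background levels, Cyp26a1 was at least 53.2-fold lower in the deficient group, and at least 25.8-fold lower without the array that stood apart. Rarb, which encodes retinoic acid receptor beta, had levels of -0.47, 0.31, 0.16 and -1.55 on the high fat arrays and -3.17 and -2.38 on the deficient arrays. These do not overlap, yet the difference of -2.38 ± 0.52 missed the threshold with all arrays (adjusted p = 0.203) and without the array that stood apart (adjusted p = 0.0533).

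Cyp26a1 and Rarb are shown by their promoters because these hold the kind of element that RAR and RXR pairs are known to bind, a spaced direct repeat. Windows of RefSeq genes (GRCm38.p6, 250 bases before to 50 after each gene's start) were searched on both strands for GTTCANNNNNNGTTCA, where N is any base. The pattern was in 25 of 32851 windows (0.0761%), which belong to 24 genes, and Cyp26a1 and Rarb were among these. The 150 bases before each start are printed 5′ to 3′ on the gene's strand, with the match in capitals. In Cyp26a1, at chr19:37697658-37697807 on the plus strand, the match lies on the opposite strand, from position -32 to -17 relative to the start, and in Rarb, at chr14:16575477-16575626 on the minus strand, it lies on the gene's own strand, from -52 to -37.
Cyp26a1: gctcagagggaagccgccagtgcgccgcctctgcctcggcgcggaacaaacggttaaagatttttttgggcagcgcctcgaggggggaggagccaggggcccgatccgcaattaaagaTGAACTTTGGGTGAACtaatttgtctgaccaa
Rarb: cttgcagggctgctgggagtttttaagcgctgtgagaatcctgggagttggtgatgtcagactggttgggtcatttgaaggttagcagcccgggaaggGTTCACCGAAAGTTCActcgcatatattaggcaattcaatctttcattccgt
A match is a description of these letters and not of binding. Among the 30 called genes, 21 had a window in the table, and 0 of the 21 held the pattern, Cyp26b1 and Lrat included.

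**Figure D2:**
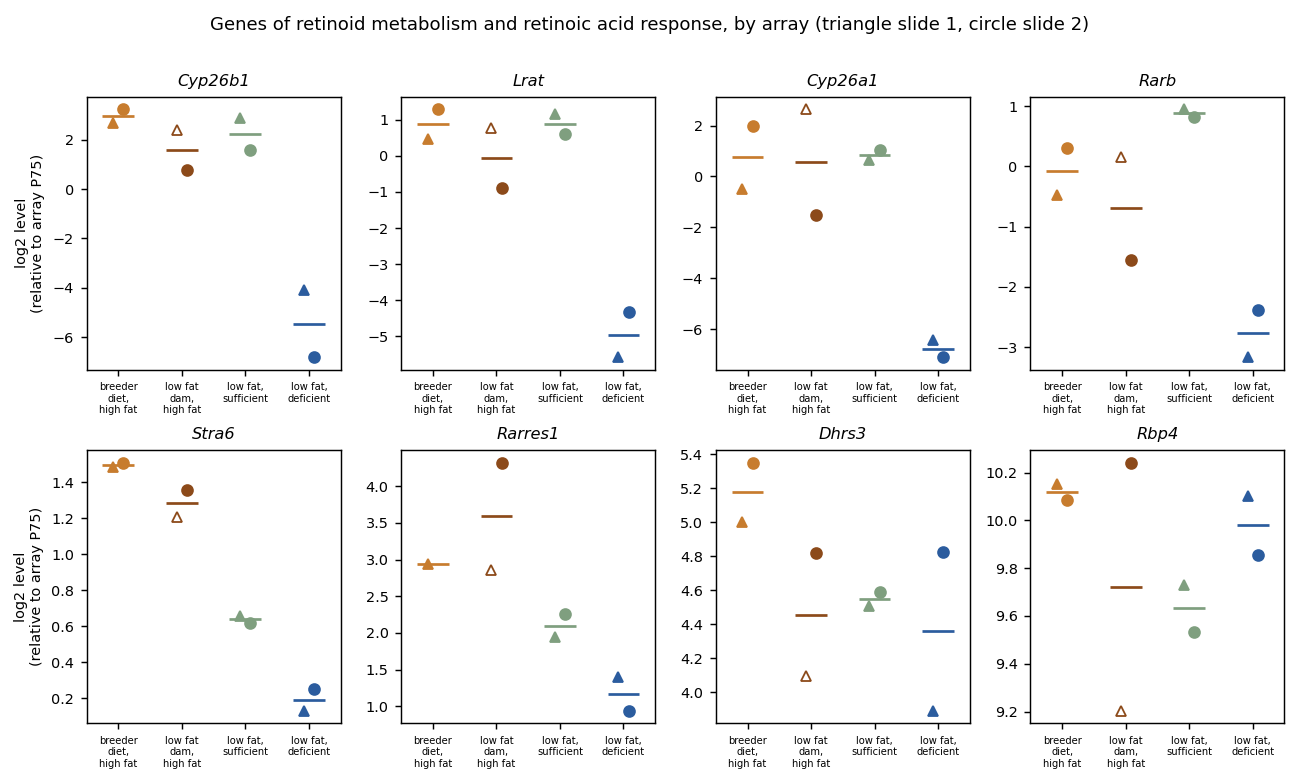
Log2 level relative to the 75th percentile of each array for 8 genes of retinoid metabolism or retinoic acid response, by diet group; triangles are slide 1, circles slide 2, bars the group means, and the open triangle is the array that stood apart. Cyp26b1, Lrat, Cyp26a1, Rarb and Stra6 are lower on both deficient arrays than on every other array, whereas Dhrs3 and Rbp4 overlap with the high fat arrays.

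Of 20 retinoic acid target genes listed, 18 were on the array, Crabp2, Hoxb1 and Stra8 did not pass the filter on dim probes, and 15 were tested. Among these 2 fell (Cyp26b1 and Lrat) and 0 rose, against 0.116% and 0.058% of all genes. Without the array that stood apart 5 fell, against 0.649% of all genes, Cyp26a1, Stra6 and Rarres1 being the others. In 6 of the 15 both deficient arrays were below all high fat arrays, against 6.94% of all genes, and the median difference of the list was -0.46 (-0.66 without that array) against 0.04 over all genes. The difference was negative in 14 of the 15. Stra6, a membrane receptor for retinol bound to its carrier, had levels between 1.21 and 1.51 on the high fat arrays and of 0.13 and 0.25 on the deficient arrays. Its difference was -1.20 ± 0.25 (adjusted p = 0.185, and 0.039 without that array). Rarres1, a retinoic acid responsive gene, had no value on breeder diet array 2 and differed by -2.09 ± 0.50 (adjusted p = 0.27, and 0.0305 without the array that stood apart). Other members that did not pass were the retinal reductase Dhrs3 at -0.46, the transcription factor Bhlhe40 at -0.37 and the transglutaminase Tgm2, the 1 positive member, at 0.26.

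Of 33 genes of retinoid handling tested, 2 fell, again Cyp26b1 and Lrat, and 0 rose, against 0.116% and 0.058% of all genes, with a list median of -0.01. Both deficient arrays were above all high fat arrays in 5 (15.2%) and below in 4 (12.1%), against 10.1% and 6.94% of all genes. Without the array that stood apart 3 fell, Cyp26a1 being the third, and 3 rose, which were Bco1, Fabp5 and Aldh1a3. In that fit 0.649% of all genes fell and 1.26% rose. Rbp4, the plasma carrier of retinol made by hepatocytes, lay between 9.20 and 10.24 on the high fat arrays and at 10.10 and 9.86 on the deficient arrays, so the groups overlapped (difference 0.06 ± 0.35, adjusted p = 0.977). Stra6l, a liver receptor for the RBP4 carrier, differed by 0.29 (adjusted p = 0.863), and Aldh1a1, a retinal dehydrogenase, by -0.89 (adjusted p = 0.604) with no value on breeder diet array 2. Aldh1a3, another retinal dehydrogenase, was at -4.59, -3.57, -2.27 and -5.55 on the high fat arrays and at -1.56 and -2.14 on the deficient arrays, a difference of 2.14 ± 0.82 (adjusted p = 0.51, and 2.97 with 0.0265 without that array). Bco1, which cleaves carotenoids to retinal, was at -0.80 or below on the high fat arrays and at 0.34 and 0.23 on the deficient arrays. That difference of 1.22 ± 0.25 had adjusted p = 0.185, and 0.0459 without the array that stood apart. Among 6 retinoid receptor genes tested, 0 passed (limma, 1 at an unadjusted p under 0.05), with differences of -0.64 for Rara, -0.02 for Rarg and 0.45 for Rxra.

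Because Lrat marks stellate cells, other genes of these cells are given beside it. Of 19 stellate and fibroblast markers tested, which include Lrat, 1 fell and 0 rose, against 0.116% and 0.058% of all genes. Without the array that stood apart Vim, an intermediate filament gene, rose (1.56, adjusted p = 0.0459), as did 1.26% of all genes. The differences were positive in 9 and negative in 10, with a median of -0.00, and at an unadjusted p under 0.05 1 was higher and 3 were lower. Besides Lrat, those lower were the neurotrophin receptor genes Ngfr (-1.43, adjusted p = 0.203) and Ntrk2 (-1.74, adjusted p = 0.418). The summed linear level of the list was 183 and 241 on the breeder diet arrays, 132 and 151 on the low fat dam arrays and 260 and 176 on the deficient arrays, which overlap. In whole tissue, fewer cells of a type and less RNA per cell cannot be told apart.

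A further 4 named genes fell while the sufficient low fat arrays did not lie on the deficient side. Rhbg, an ammonium transporter of pericentral hepatocytes, was at 1.08, 1.56, 1.80 and 1.89 on the high fat arrays and at -1.87 and -1.37 on the deficient arrays. It fell by 3.20 ± 0.30 (adjusted p = 0.0274) and passed with the slide as a block (adjusted p = 0.0378). Map3k13, a kinase upstream of the JNK pathway, was tightly grouped, between -1.03 and -0.80 on the high fat arrays and at -3.06 and -3.27 on the deficient arrays. It fell by 2.27 ± 0.26 (adjusted p = 0.0379, and 0.0666 with the block), and the sufficient low fat arrays were at -1.06 and -0.75.

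Cxcl14, a chemokine, and Raet1d, a ligand of the NKG2D receptor of natural killer cells, were highest on the sufficient low fat arrays and lowest on the deficient arrays. For Cxcl14 the sufficient low fat arrays were at 1.00 and 1.00, the high fat arrays between -1.47 and -0.55, and the deficient arrays at -3.21 and -3.05. It fell by 2.14 ± 0.26 against the high fat arrays (adjusted p = 0.0398, and 0.0666 with the block). For Raet1d the sufficient low fat arrays were at 1.14 and 1.32, the 3 high fat arrays with a value at -1.93, -1.77 and -2.39, and the deficient arrays at -5.94 and -6.86, not well above background. It fell by 4.28 ± 0.38 (adjusted p = 0.0277, and 0.0606 with the block), at least 8.23-fold. The related ligand gene Raet1e was at -1.23, -0.82, -0.39 and -1.44 on the high fat arrays and at -3.47 and -4.65 on the deficient arrays. Its difference of -3.09 ± 0.44 had adjusted p = 0.0731, and 0.0313 without the array that stood apart. Raet1 genes are close copies of each other, so a probe may read more than its own transcript.

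Other genes that fell were low on the sufficient low fat arrays too. Wif1, a secreted inhibitor of Wnt ligands, was at -1.49, -1.93, -2.31 and -1.62 on the high fat arrays, at -5.08 and -5.45 on the deficient arrays and at -7.21 and -7.40 on the sufficient low fat arrays. It fell by 3.42 ± 0.32 against the high fat arrays (adjusted p = 0.0274, and 0.0478 with the block), at least 9.25-fold, since neither low fat group was above background. Capn8, a calcium-dependent protease, was between -2.83 and -0.54 on the high fat arrays and at -5.82 and -7.06 on the deficient arrays, below background. It fell by 4.65 ± 0.46 (adjusted p = 0.0274), at least 9.73-fold. Obp2a, a lipocalin of the odorant binding family, lay between -4.13 and -1.55 on the high fat arrays and at -7.09 and -6.93 on the deficient arrays. It fell by 4.39 ± 0.36 (adjusted p = 0.0274), at least 5.46-fold. The sufficient low fat arrays were below background for both Capn8 and Obp2a, and their differences from the high fat arrays were -5.74 and -4.76.

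Aatk, a membrane-associated kinase, was at 1.51, 1.51, 0.82 and 0.77 on the high fat arrays, at -1.75 and -1.63 on the deficient arrays and at -1.72 and -1.52 on the sufficient low fat arrays. It fell by 2.84 ± 0.25 (adjusted p = 0.0274, and 0.0449 with the block). Slc22a7, a hepatic organic anion transporter, was bright throughout, at 5.57, 5.11, 4.89 and 5.68 on the high fat arrays and at 2.54 and 2.66 on the deficient arrays. It fell by 2.71 ± 0.33 (adjusted p = 0.0395, and 0.0666 with the block), and the sufficient low fat arrays were at 1.86 and 2.18. Gna14, a G protein alpha subunit, fell by 3.64 (adjusted p = 0.0422) and Trhde, which degrades thyrotropin-releasing hormone, by 2.86 (adjusted p = 0.0315, at least 3.66-fold). Zfp979, a zinc finger gene, fell by 3.51 (adjusted p = 0.0402, at least 5.28-fold), with the sufficient low fat arrays in between at -3.88 and -3.46. None of Gna14, Trhde and Zfp979 passed with the block, where their adjusted p were 0.0775, 0.0606 and 0.0796.

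A further 3 genes fell, Moxd1, Serpine2 and Sult5a1. Moxd1, a monooxygenase, was at -2.46 and -4.34 on the breeder diet arrays, at 2.89 and 4.31 on the low fat dam arrays and at -4.75 and -5.06 on the deficient arrays. The sufficient low fat arrays were at -5.22 and -5.80, not well above background. Only 1 of the 2 deficient arrays was well above background, so the size of the difference is limited by the floor of the array. Moxd1 fell by 5.005 ± 0.60 against both high fat groups together (adjusted p = 0.0392, and 0.067 with the block). Against the breeder diet group alone its difference was -1.51 (adjusted p = 0.899), and against the low fat dam group -8.50 (adjusted p = 0.0195). The high fat groups themselves differed by -7.00 for Moxd1, which did not pass (adjusted p = 0.116). Serpine2, a protease inhibitor, fell by 2.64 (adjusted p = 0.0428, and 0.0606 with the block), with -1.81 against the breeder diet group and -3.46 against the low fat dam group, and the high fat groups did not pass a test between them (adjusted p = 0.782). Sult5a1, a sulfotransferase, fell by 2.70 (adjusted p = 0.0315, and 0.0606 with the block), with -2.11 and -3.29, and the same adjusted p between the high fat groups.

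Of the genes that rose, Cyp4a14 had the largest difference. This fatty acid omega-hydroxylase is known as a target of the nuclear receptor PPARα. Its levels were 4.61 and 5.74 on the breeder diet arrays, 1.20 and 2.85 on the low fat dam arrays, 9.33 and 7.68 on the deficient arrays and 7.24 and 6.96 on the sufficient low fat arrays. It rose by 4.90 ± 0.64 (adjusted p = 0.0482, and 0.0792 with the block), with 3.33 against the breeder diet group (adjusted p = 0.302) and 6.48 against the low fat dam group (adjusted p = 0.0463). Its family member Cyp4a10 differed by 2.14 ± 0.72 and did not pass (adjusted p = 0.418). Near-identical Cyp4a genes may share probe signal.

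Ccn2, a matricellular protein also called connective tissue growth factor, was at 0.65, 0.61, 0.01 and -0.84 on the high fat arrays and at 3.80 and 3.40 on the deficient arrays. It rose by 3.49 ± 0.32 (adjusted p = 0.0274, and 0.043 with the block), and the sufficient low fat arrays were at 2.76 and 2.82. Cd9, a tetraspanin, rose by 2.56 ± 0.26 (adjusted p = 0.0277, and 0.0572 with the block) from between 0.10 and 0.73 to 3.13 and 2.88. Tff3, a trefoil peptide, rose by 2.37 ± 0.28 (adjusted p = 0.0391, and 0.0666 with the block) from between 3.65 and 4.48 to 6.48 and 6.31. For Cd9 and Tff3 the sufficient low fat arrays, at 3.37 and 3.33 and at 6.39 and 6.05, were close to the deficient arrays.

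Csad, which makes the taurine precursor hypotaurine, was between 3.44 and 4.44 on the high fat arrays and at 7.13 and 6.12 on the deficient arrays. It rose by 2.69 ± 0.34 (adjusted p = 0.0458, and 0.0775 with the block), and its 2 probes pointed the same way. Rad51b, a recombination repair gene, rose by 4.05 ± 0.42 (adjusted p = 0.0392, and 0.0478 with the block) on 3 high fat arrays, since the array that stood apart had no value. Ifnlr1, a subunit of the interferon lambda receptor, was below background on all high fat arrays and well above it on 1 of 2 deficient arrays. It rose by 2.02 ± 0.26 (adjusted p = 0.0448, and 0.0775 with the block), which from background is at least 1.05-fold. The sufficient low fat arrays were at 6.25 and 6.31 for Csad, at 1.13 and 1.66 for Rad51b and at -3.84 and -3.94 for Ifnlr1. The deficient arrays were at 0.85 and 1.54 for Rad51b and at -4.75 and -4.68 for Ifnlr1.

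S100a8, a subunit of the calprotectin complex of neutrophils, was at -2.11, -1.47, -1.30 and -0.46 on the high fat arrays and at 1.71 and 1.92 on the deficient arrays. It rose by 3.15 ± 0.35 (adjusted p = 0.0315, and 0.0497 with the block), and the sufficient low fat arrays were at -0.60 and -0.77. Its partner S100a9 was at 0.57, 0.89, 0.85 and 2.47 on the high fat arrays and at 4.02 and 4.46 on the deficient arrays. The difference of 3.04 ± 0.46 had adjusted p = 0.0841, and 0.0126 without the array that stood apart. Of 10 neutrophil markers tested, 1 rose and 0 fell, against 0.058% and 0.116% of all genes. Without that array 3 rose, against 1.26% of all genes: S100a8, S100a9 and the collagenase gene Mmp8. Mmp8 was at -0.98 on that array and at -1.75 and -3.47 on the deficient arrays. The list median was 1.55 (2.21 without that array), and 4 of 10 had both deficient arrays above all high fat arrays, against 10.1% of all genes. That median was 2.999 against the breeder diet group and 0.63 against the low fat dam group, and from background levels it was 1.14. The summed linear level of the 10 genes tested, of 12 on the array, was 2.06 and 2.53 on the breeder diet arrays. It was 6.47 and 6.79 on the low fat dam arrays, 5.26 and 5.03 on the sufficient low fat arrays and 20.9 and 27.5 on the deficient arrays. On the deficient arrays S100a9 and S100a8 made up most of that sum, so it says little about the other genes of the list. The granule genes Camp and Elane did not pass the filter on dim probes in any group. Whether the change lies in cell number was not tested.

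**Figure D3:**
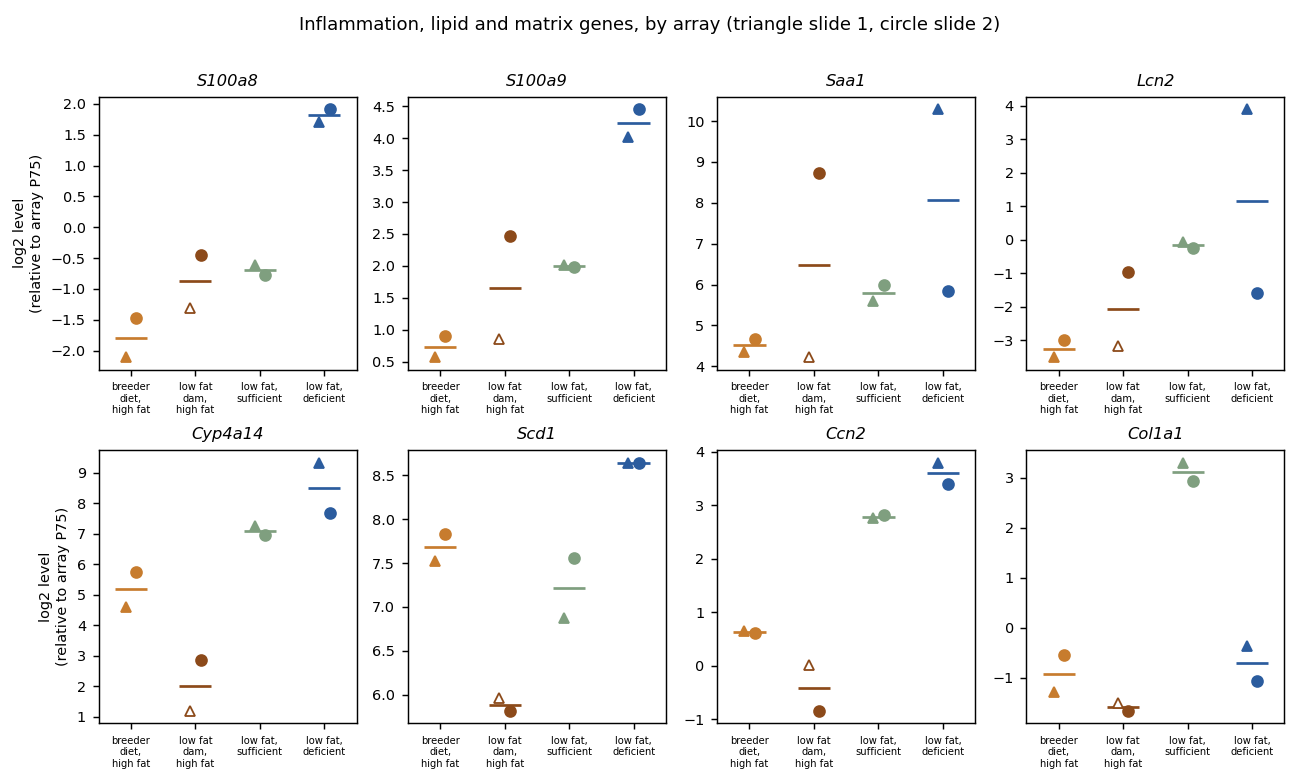
Log2 level relative to the 75th percentile of each array for 8 genes of inflammation, lipid metabolism and matrix, by diet group; symbols as in the plot of retinoid genes. S100a8, S100a9, Cyp4a14, Scd1 and Ccn2 are above every high fat array on both deficient arrays, Saa1 and Lcn2 are high on deficient array 1 and within the high fat range on deficient array 2, and Col1a1 is high on the sufficient low fat arrays.

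The 2 deficient arrays disagreed on some acute phase genes. Saa1, a serum amyloid, was at 10.29 and 5.84 on the deficient arrays, against 4.35, 4.67, 4.22 and 8.73 on the high fat arrays, so the groups overlapped. Lcn2, an iron-binding lipocalin of the acute phase, was at 3.91 and -1.58 against -3.50, -2.99, -3.16 and -0.96. The zinc-binding metallothionein gene Mt1 was at 10.36 and 3.19 against 4.33, 6.02, 3.09 and 7.51. Of 30 acute phase genes tested, 0 passed (limma, 10 at an unadjusted p under 0.05). In 9 both deficient arrays were above all high fat arrays, against 10.1% of all genes, and in 0 both were below. Orm2, for example, was at 7.56 and 7.32 on the deficient arrays, against 5.70, 5.97, 4.88 and 6.78 on the high fat arrays. The list median of 0.99 came from 2.12 on slide 1 and 0.02 on slide 2. It was 0.54 without the array that stood apart, when 1.26% of all genes and 1 of the list rose. That was Apcs, the serum amyloid P component, at 4.02 and 3.70 against 1.59 to 2.39, with a difference of 1.83 ± 0.31 (adjusted p = 0.113, and 0.039 without that array). The cell cycle inhibitor Cdkn1a had the same uneven form, at 4.16 and -0.03 against -3.57 to -1.77 (difference 4.93 ± 1.06, adjusted p = 0.202).

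Lipid genes gave few calls. Of 26 lipogenesis genes tested, 0 passed with all arrays (limma, 8 at an unadjusted p under 0.05). Without the array that stood apart 4 rose and 1 fell, against 1.26% and 0.649% of all genes. Scd1, which desaturates stearate, was at 7.53 and 7.83 on the breeder diet arrays, 5.96 and 5.82 on the low fat dam arrays and 8.64 and 8.64 on the deficient arrays. Its difference of 1.86 ± 0.30 had adjusted p = 0.107, and 0.0352 without that array. Me1 and G6pdx, which supply NADPH, and Lpin1, a phosphatidate phosphatase, passed without that array, with 1.61, 1.60 and 2.08, as did Mlxipl, the carbohydrate response factor ChREBP, with -1.46. The list median was 0.21, and 0.06 without that array. Fasn, the fatty acid synthase, differed by 0.60 (adjusted p = 0.7) and Srebf1, its sterol-linked regulator, by -0.96 (adjusted p = 0.429), with groups that overlap for Fasn.

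Of 40 fatty acid oxidation genes tested, 1 rose (Cyp4a14) and 0 fell, against 0.058% and 0.116% of all genes. The median was 0.44, with 0.13 against the breeder diet group and 0.71 against the low fat dam group. That median was 0.94 on slide 1, -0.16 on slide 2 and 0.24 without the array that stood apart. In that fit Cyp4a14 was again the 1 gene called, against 1.91% of all genes. Of 21 lipid droplet genes tested, 0 passed (limma, 8 at an unadjusted p under 0.05). Cidec, which enlarges lipid droplets, was at 6.47 and 1.57 on the deficient arrays, against 0.91, 2.06, -0.04 and 1.12 on the high fat arrays and 5.64 and 5.95 on the sufficient low fat arrays. The fatty acid uptake genes included Fabp5, a fatty acid and retinoic acid carrier, at -2.23 and -2.20 on the deficient arrays and -6.01, -6.27, -2.56 and -3.94 on the high fat arrays. Its difference of 2.48 ± 0.43 passed without the array that stood apart (adjusted p = 0.0129 against 0.117). The hormone gene Fgf21 differed by 2.85 ± 0.75 and did not pass (adjusted p = 0.281).

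Of 18 pericentral and Wnt target genes tested, 1 fell (Rhbg) and 0 rose, against 0.116% and 0.058% of all genes. In 6 both deficient arrays were below all high fat arrays, against 6.94% of all genes, and the median was -0.69 against 0.04. The sufficient low fat group had a list median of -0.64 against the same high fat arrays. The median difference of the deficient from the sufficient low fat group was 0.003. With the array that stood apart left out 2 fell, against 0.649% of all genes. The second was the glutamate transporter gene Slc1a2, and the deficient median was -0.80. Lect2, a hepatokine and known target of beta-catenin, was at 4.25 and 5.07 against 5.45 to 6.55 (difference -1.47 ± 0.36, adjusted p = 0.261). The Wnt target Sp5 was at -2.43 and -1.23 against -0.67 to 0.15 (difference -1.56 ± 0.42, adjusted p = 0.288). Glul, the glutamine synthetase of the innermost hepatocytes, differed by -0.43 (adjusted p = 0.831), and the receptor gene Lgr5 by -1.24 (adjusted p = 0.506). Cyp2c54, a hepatic cytochrome P450, was at -0.11 and -0.31 on the deficient arrays against 1.28 to 2.21 on the high fat arrays and -4.60 and -3.89 on the sufficient low fat arrays. Its difference of -1.97 ± 0.33 had adjusted p = 0.113, and 0.0334 without the array that stood apart. Among 17 male-biased liver genes tested, 1 fell (Moxd1) and 0 rose, against 0.116% and 0.058% of all genes. In 6 both deficient arrays were below all high fat arrays and in 2 above, against 6.94% and 10.1% of all genes. The differences were positive in 8 and negative in 9, with a median of -0.24. For the sufficient low fat group that median was -0.88 against the same high fat arrays, and the deficient group differed from that group by a median of 0.77. Without the array that stood apart 3 fell, against 0.649% of all genes. These were Moxd1, Susd4 and the selenium-binding protein gene Selenbp2 (-1.93, adjusted p = 0.0183). Hsd3b5, a male-specific steroid dehydrogenase, was at 1.18 and 4.37 on the deficient arrays, between 5.47 and 6.18 on the high fat arrays and at -2.39 and -2.42 on the sufficient low fat arrays (difference -2.89 ± 0.77, adjusted p = 0.288).

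Proliferation, matrix and macrophage genes are given with the sufficient low fat group beside, which is set against the same 4 high fat arrays. Of 45 cell cycle genes tested, 0 passed in the deficient comparison (limma, 10 at an unadjusted p under 0.05). Without the array that stood apart 2 rose, against 1.26% of all genes. The list median was 0.33 (0.47 without that array), beside 2.95 for the sufficient low fat group. Mki67, which marks cycling cells, was at -1.82 and -1.75 on the deficient arrays, between -2.86 and -1.77 on the high fat arrays and at 2.05 and 1.40 on the sufficient low fat arrays. Of 40 extracellular matrix genes, 1 rose (Ccn2) and 0 fell, against 0.058% and 0.116% of all genes, and the median was 0.37 beside 1.96. With that array left out 4 rose, against 1.26% of all genes, Ccn2, Timp2 and Tinag among them, and the median was 0.56. Col1a1, a fibrillar collagen chain, was at -0.36 and -1.06 on the deficient arrays, between -1.67 and -0.56 on the high fat arrays and at 3.30 and 2.94 on the sufficient low fat arrays. Of 24 lipid-associated and infiltrating macrophage markers, 1 rose (Cd9) and 0 fell, against 0.058% and 0.116% of all genes. In 9 both deficient arrays were above all high fat arrays, against 10.1% of all genes, and the median was 0.39 beside 1.92. Without the array that stood apart 3 rose, against 1.26% of all genes, with Itgax and Fabp5 beside Cd9, and the median was 0.79. Trem2, a receptor of lipid-associated macrophages, was at -0.01 and 0.71 on the deficient arrays and at 3.14 and 3.15 on the sufficient low fat arrays. The deficient and sufficient low fat groups differed by -3.51 for Mki67 (adjusted p = 0.016), -3.83 for Col1a1 (adjusted p = 0.016) and -2.80 for Trem2 (adjusted p = 0.025). Over all genes 0.614% passed between these groups (0.0927% higher and 0.522% lower in the deficient group), and 3.38% passed between the sufficient low fat group and the high fat arrays.

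**Figure D4:**
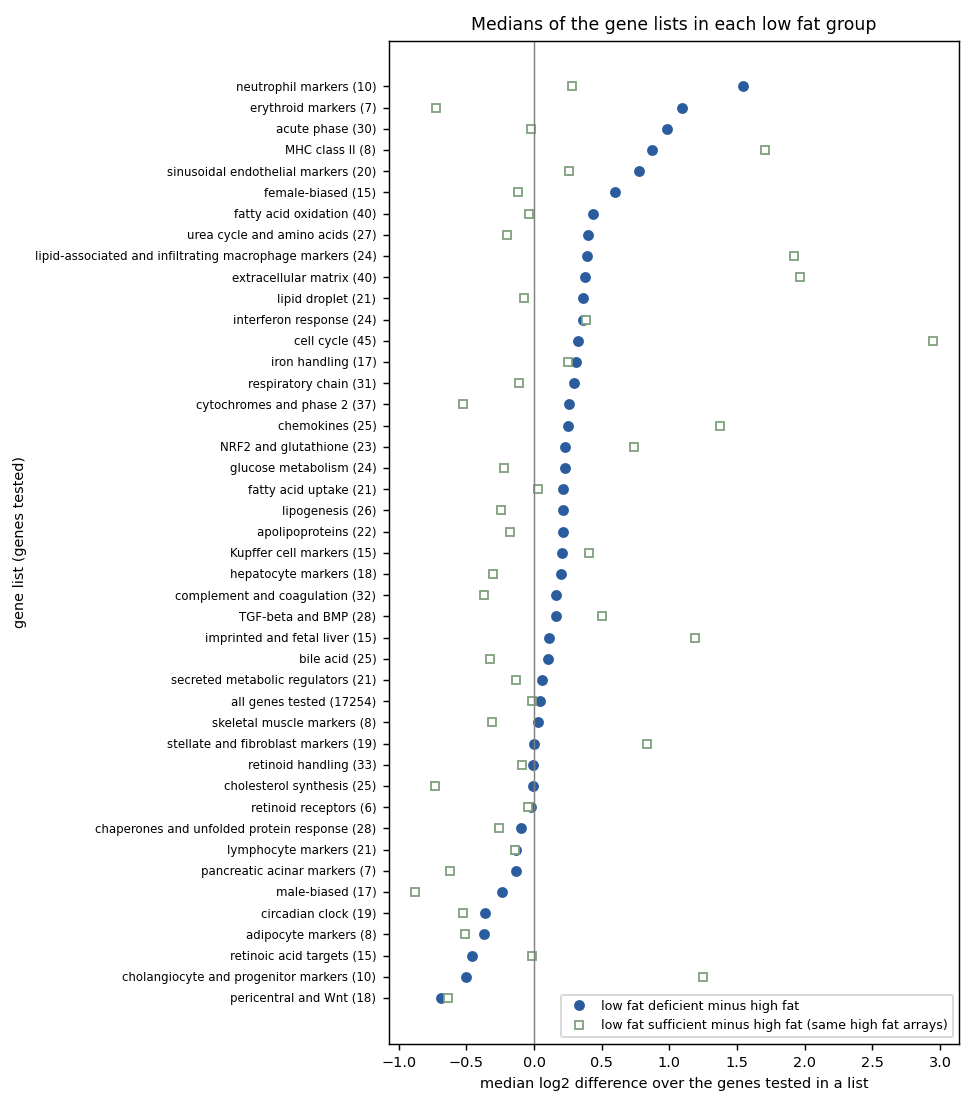
Median log2 difference over the genes tested in each gene list with at least 5 such genes (vertical axis, number tested in brackets), for the deficient group against the high fat groups (filled circles) and the sufficient low fat group against the same high fat arrays (open squares). The deficient medians run from -0.69 for pericentral and Wnt genes to 1.55 for neutrophil markers. The neutrophil median was 2.999 against the breeder diet group and 0.63 against the low fat dam group. The sufficient low fat median is -0.64 for pericentral and Wnt genes, and the highest is 2.95 for cell cycle genes.

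Of 8 MHC class II genes tested, 0 passed (limma, 6 at an unadjusted p under 0.05), and in 6 both deficient arrays were above all high fat arrays, against 10.1% of all genes. Their median difference was 0.87, beside 1.71 for the sufficient low fat group against the same high fat arrays. The median difference of the deficient from the sufficient low fat group was -0.77. H2-Aa, a class II alpha chain, was at 1.76 and 2.25 against 1.13, 1.18, 0.95 and -0.03, a difference of 1.20 ± 0.35 that passed without the array that stood apart (adjusted p = 0.0418 against 0.329). Of 20 sinusoidal endothelial markers, 0 passed with all arrays (limma, 9 at an unadjusted p under 0.05). Without the array that stood apart 3 rose, against 1.26% of all genes. The median of these markers with all arrays was 0.77, made of 0.19 against the breeder diet group and 1.31 against the low fat dam group. Their summed linear level was 107.3 and 133 on the breeder diet arrays, 61.7 and 43.9 on the low fat dam arrays and 126 and 136 on the deficient arrays.

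Each high fat group was also compared alone. Against the breeder diet group 0 genes passed with limma (0%), although 1021 had an unadjusted p under 0.05 and the smallest adjusted p was 0.0634, shared by Cyp26b1, Lrat and Wif1 among others. Without the array that stood apart, which lies outside this contrast and enters it through the shared estimate of spread, 98 genes passed, 50 higher (0.29%) and 48 lower (0.278%). Against the low fat dam group 13 genes passed (0.0753%), 4 higher (0.0232%) and 9 lower (0.0522%). No count without array 1 of that group is given here, since 1 array would then stand for it. Of the 13, 11 were among the 30 of the pooled comparison, which uses the same arrays, and 6 passed with the slide as a block. Among the 13 were Moxd1 (-8.50, adjusted p = 0.0195), Obp2a (-5.34, adjusted p = 0.0195), Capn8 (-5.38, adjusted p = 0.042), Rhbg (-3.47, adjusted p = 0.042), Ccn2 (4.02, adjusted p = 0.0369), Cyp4a14 (6.48, adjusted p = 0.0463) and Cd9 (2.75, adjusted p = 0.0463). These comparisons share the deficient arrays, and the direct test between the high fat groups bears on whether they differ. In that test 1 gene passed (0.0058%): Tmem150b, a membrane protein gene, at -7.05 and -6.93 on the breeder diet arrays and -2.74 and -2.69 on the low fat dam arrays. Its difference was -4.27 between the high fat groups (adjusted p = 0.0291), and the deficient arrays, at -6.89 and -6.39, were below background as were the breeder diet arrays. Between the high fat groups 0 genes passed in limma with the slide as a block (1301 at an unadjusted p under 0.05), and 0 without the array that stood apart (1490), where the smallest adjusted p was 0.0821. For the 25 named genes, the differences against the breeder diet group and the low fat dam group are plotted side by side.

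**Figure D5:**
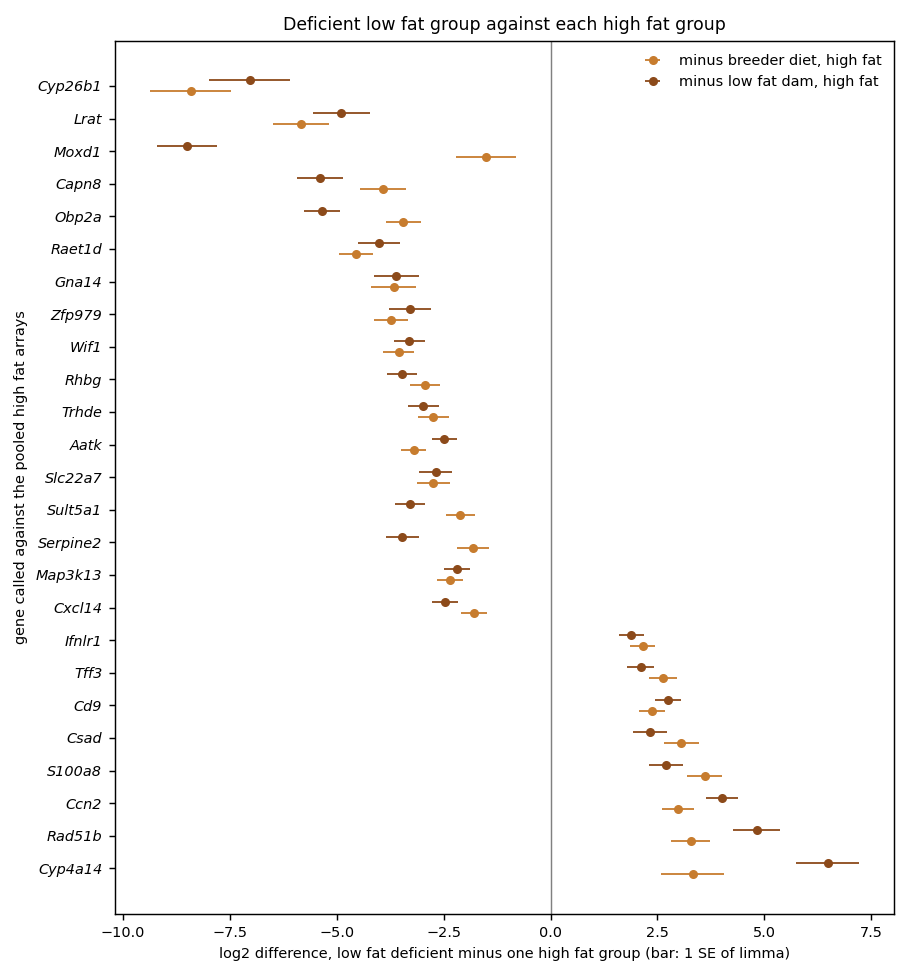
Log2 difference of the deficient group from the breeder diet high fat group (light brown) and from the low fat dam high fat group (dark brown) for the 25 named genes that passed against both together; bars are 1 SE of the limma fit. All points lie on the side of the pooled difference, from -8.41 to 4.24 for all 30 genes against the breeder diet group and from -8.50 to 6.48 against the low fat dam group, and Moxd1 shows the widest gap between its points.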

How the data were processed

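Liver RNA was hybridised to single-colour Agilent arrays (design 014868, mm9), and per the file headers the authors extracted the deposited intensity values with Agilent Feature Extraction 10.7.3.1, which subtracts background to give the processed signal. The deposited series table holds the same processed intensity rounded to 3 digits and served as an alternative. Control and outlier spots were left out, log2 of the deposited processed intensity was centred on the 75th percentile of each array, and probes were kept where some diet group had each of its arrays well above background (26224 of 41174 gene probes). The brightest probe stood for a gene. RefSeq symbols replaced the array's names for the 82.59% of probes that matched.

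All 8 arrays were fitted in limma 3.58.1 (R 4.3.3, lmFit and eBayes) with 1 mean per diet group, and the deficient group was tested against the mean of both high fat groups and against each, with Benjamini-Hochberg adjustment over 17254 genes at 0.05. SE is that of the fit, with 2 arrays a group, a number that limits the precision. An exact permutation test of 2 arrays against 4 cannot go below 1 in 15. "At least" folds use, in place of a dim probe, the lowest signal well above background on its array. On simulated data for the pooled comparison (16158 genes), 79% of genes changed by 4 on the log2 scale and 47% of those changed by 2 were called. The simulation gave a gene the same spread in every group and no slide effect, so these shares may not hold for the real arrays. Figures were drawn with matplotlib 3.10.9.

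The replicate number is also the slide. Slide differences of the groups correlated at 0.0987 to 0.305, 1 pair being under 0.1, and nothing in the labels ties the numbers to animals or litters, but the slide is a shared batch in the headers, so its block is given where it changes a call.

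Genes and lists were chosen with earlier results of these data known. Named are the called genes with the largest differences, those called against each high fat group, those that differ from both other diets, and 64 genes of known function. Chosen after their values were seen were Stra6, Rarres1, Bco1, Tgm2, Bhlhe40, Rara, Rarg, Rxra, Aldh1a3, Vim, Ngfr, Slc1a2, Selenbp2, Susd4, Timp2, Tinag, Slc22a7, Serpine2, Cyp4a10, S100a9, Mmp8, Mt1, Apcs, Cdkn1a, Me1, G6pdx, Lpin1, Mlxipl, Lect2, Sp5, Glul, Lgr5, H2-Aa and the unnamed transcripts. Results on some listed genes are not reported here.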

Additional observations from a re-analysis of the deposited data

Results flagged for a closer look

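Among the 4 high fat arrays, array 1 of the low fat dam group lay far from the other 3 on 3 measures of array quality, where the gap to its nearest neighbour was a large part of the whole range. That ratio was 0.842 for the percent of probes well above background, 0.867 for the 75th percentile of the processed signal and 0.896 for the number of outlier spots. Chance marks about 1 in 20 such groups of 4.

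For Tmem150b, the deficient group's differences from the breeder diet and the low fat dam high fat groups were themselves different, by a test that equals the test between the high fat groups (-4.27, limma, adjusted p = 0.0291). That call was lost with the slide as a block and without array 1 of the low fat dam group, where 0 genes passed between the high fat groups and the smallest adjusted p was 0.0821 in the latter. The difference for Tmem150b was -3.92 against the low fat dam group (at least 5.11-fold lower, adjusted p = 0.0195) and 0.35 against the breeder diet group (adjusted p = 1), where neither group was above background.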

How the results depend on the processing

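The number of genes called against both high fat groups together (30) was 31 with quantile normalization, 24 (23 of them among the 30) with the mean of a gene's probes and 30 with the deposited table, but 170 with normexp background correction, 81 with a stricter filter on dim probes, 209 with a trended and robust prior, 13 with array weights, 12 with the slide block, which is also the replicate block, and 0 without a filter, with only the 6 arrays, or with the 4 high fat arrays as 1 group (1299, 1024 and 1026 at an unadjusted p under 0.05, limma). Leaving out an array gave 0 to 1727. Against the breeder diet group (0), normexp gave 52, the stricter filter 17, weights 85, the trended prior 83 and leaving out an array 0 to 98. Against the low fat dam group (13), normexp gave 153, quantile 32, no filter 0, the stricter filter 59, the mean of probes 3, 6 arrays 0, weights 0, the trended prior 197, the block 6 and leaving out an array 0 to 4868. Between the high fat groups (1), quantile, no filter, the stricter filter, 6 arrays, weights and the block each gave 0, and leaving out an array 0 to 3064. Calls of single genes kept their side of the threshold in 118 of their alternative fits and were lost in 124, leaving out an array aside. No result changed sign after being called. The cause of these differences was not tested. Without a filter, the median of all genes shifted by -0.23 in the pooled comparison. Differences of genes near background are limited by the floor of the array.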

Other observations

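Erythroid marker genes, which lie outside the comparisons given, had summed linear levels of 191 and 344 on the deficient arrays, 189 and 167 on the breeder diet arrays, 63.5 and 92.9 on the low fat dam arrays and 85.2 and 88.2 on the sufficient low fat arrays. Cfd, an adipocyte-rich complement factor, was at -0.55, 3.77, 0.94 and -2.04 on the high fat arrays and at -6.37 and -6.14 on the deficient arrays, below background, a difference of -6.79 ± 1.22 (limma, adjusted p = 0.14) and at least 48.6-fold lower. It was at -4.62 and -3.76 on the sufficient low fat arrays. Susd4, a complement regulator, was between 2.61 and 3.58 on the high fat arrays, at 0.80 and 0.76 on the deficient arrays and at -2.99 and -2.26 on the sufficient low fat arrays, and its difference of -2.23 passed without the array that stood apart (adjusted p = 0.018 against 0.107). Cfd and Susd4 were chosen after their values were seen.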
